A study of Drosophila melanogaster with 2 samples.

Results

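The X chromosome of Drosophila melanogaster held 997 of the 5327 peaks in a genome-wide list for fd59A, a forkhead-box transcription factor, measured by chromatin immunoprecipitation followed by sequencing (ChIP-seq). The peaks were taken by position alone, as the rows of the authors' list on X in build dm6. The list had been cut by the irreproducible discovery rate (IDR), which asks whether a peak ranks alike in separate replicates. Each peak has a summit, its point of highest signal, and all 997 summits lie within the 23.5 Mb of X in the Release 6 sequence. The samples were whole prepupae of strain fd59A-GFP, males and females pooled, labelled as aged 24 day. The line stably expresses fd59A with green fluorescent protein (GFP; fd59A-eGFP in the labels' description) at its C terminus, and an anti-GFP antibody was used on chromatin sonicated to 200 to 800 bp. There were 2 samples, biological replicates 2 and 3 of 1 group, and no comparison of conditions was possible. No control library was among the samples, so signal not due to the tagged protein cannot be told apart from binding at any peak. Whole animals mix all tissues, and because the sexes were pooled the number of X copies per cell differed between the animals in a sample. The comparison made here is between X and the 4 large autosomal arms, which held 4325 peaks. Peaks are not replicates, so no test was run. Intervals are 95% Wilson intervals and cover counting error only.

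Forkhead factors bind DNA through a winged-helix domain, and many recognise a core such as GTAAACA, or its variant ATAAACA. In Drosophila, males carry a single X and females a pair of them. The male X is transcribed at a raised level by the MSL complex, a protein assembly that carries the noncoding RNAs roX1 and roX2 and spreads over active genes. Sxl, itself on X, is the switch gene that blocks this complex in females. The X also differs from the autosomes in its gene content and is rich in short repeats such as runs of CA.

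The DNA under the strongest X summits was poor in G and C, and the windows printed here show this for the top peaks and for those that hold a forkhead core. Each window is the plus strand of dm6, from 50 bp before to 50 bp after the summit, from the RefSeq Release 6 sequence. Capitals mark, on either strand, the forkhead core GTAAACA, its variant ATAAACA, the homeodomain-type word TAATTA, the GATA-type word AGATAA and runs of at least 6 A or T. The windows are chrX:2703845-2703945 at the Ugalt promoter, chrX:12751267-12751367 in an exon of lncRNA:Vinr, chrX:4910338-4910438 in an intron of CG32772, chrX:2137253-2137353 at the ph-p promoter, chrX:2300655-2300755 in an intron of Raf, chrX:9585459-9585559 at the Hex-A promoter, chrX:21367783-21367883 at the bbx promoter and chrX:9650891-9650991 at the Ptpmeg2 promoter.
Ugalt: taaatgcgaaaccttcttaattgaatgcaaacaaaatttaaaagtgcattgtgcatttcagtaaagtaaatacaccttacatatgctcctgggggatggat
lncRNA Vinr: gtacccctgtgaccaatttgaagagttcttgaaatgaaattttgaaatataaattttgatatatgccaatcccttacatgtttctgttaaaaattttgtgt
CG32772: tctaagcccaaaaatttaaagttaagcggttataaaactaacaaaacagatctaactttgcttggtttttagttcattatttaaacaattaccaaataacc
ph-p: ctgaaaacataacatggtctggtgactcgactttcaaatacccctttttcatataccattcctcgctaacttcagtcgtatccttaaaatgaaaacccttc
Raf: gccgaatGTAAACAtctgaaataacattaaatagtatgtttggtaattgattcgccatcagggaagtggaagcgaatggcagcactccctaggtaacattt
Hex-A: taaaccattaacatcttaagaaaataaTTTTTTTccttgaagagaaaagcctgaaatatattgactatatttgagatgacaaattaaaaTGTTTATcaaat
bbx: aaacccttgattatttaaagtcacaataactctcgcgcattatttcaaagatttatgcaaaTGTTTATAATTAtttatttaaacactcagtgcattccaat
Ptpmeg2: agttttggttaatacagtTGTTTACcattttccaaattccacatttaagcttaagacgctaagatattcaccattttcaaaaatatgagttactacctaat
In the bbx window a forkhead core and TAATTA overlap. Across the 20 strongest X peaks the GC content of the window lay between 21.8% and 39.6%. GTAAACA was in 2 of the 20 windows and ATAAACA in another 2, while 8 held a run of 6 A or of 6 T.

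The strongest X peaks lay at promoters and inside introns, and not between genes. Of the 20 strongest, 10 were within 500 bp of a transcription start site, 8 were in introns, 2 were in noncoding exons and 0 were intergenic. The strongest had a signal of 2579 in the authors' units and sat 43 bp upstream of the start of Ugalt, a UDP-galactose transporter gene. Its signal was 1168 in replicate 2 and 1423 in replicate 3. A second cluster lay over the noncoding genes lncRNA:Vinr and lncRNA:CR44619, with signals of 2459 and 1799, and its nearest protein-coding start site was that of CG4004, 5000 bp and 6041 bp away. The first of these peaks scored 960 in replicate 2 and 1427 in replicate 3. The second scored 841 in replicate 2 and 961 in replicate 3. Another summit there, at 1088, was nearest to the start of Paics, a purine synthesis gene, at 6079 bp.

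CG32772 carried an intron peak of 1969, with 833 in replicate 2 and 1125 in replicate 3. A pair of the 20 strongest peaks belonged to ph-p (polyhomeotic proximal), a Polycomb group gene, at 448 bp upstream (1743) and 414 bp downstream (1128) of a start site. The peak upstream scored 676 in replicate 2 and 1109 in replicate 3. Act5C, a cytoplasmic actin gene, had its strongest summit 4689 bp upstream at 1565, in an intron of lncRNA:CR45668. Raf, a kinase of the MAP kinase cascade, had an intron peak of 1429, with 658 in replicate 2 and 780 in replicate 3. The intron peaks of CG3726, Tlk (a Tousled-like kinase), Myc (a growth regulator), LPCAT and norpA (the phospholipase C of phototransduction) had signals between 1037 and 1462. At promoters, pdgy, Hex-A (a hexokinase), bbx, Gapdh2 (a glycolytic enzyme), Ptpmeg2 and CG8034 lay between 1059 and 1303. All 20 had a summit within 100 bp in both replicates, at rank 108 or better in replicate 2 and 133 or better in replicate 3. X held 5 of the 20 strongest and 18 of the 100 strongest peaks of the whole list, beside 18.7% of all its peaks (interval 17.7 to 19.8).

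X peaks had signals close to those elsewhere. Their signal ran from 106 to 2579, with a median of 194.8, against a median of 193.0 on the autosomal arms, where single arms ranged from 182 to 199. The ratio of the medians was 1.01. In replicate 2 the matched X summits had a median of 87.4, against 86.0 on the autosomal arms, and in replicate 3 the medians were 112.007 on X and 112.011 on the autosomal arms. The ratio was thus 1.02 in replicate 2 and 1.00 in replicate 3. Of the X peaks, 936 (93.9%, interval 92.2 to 95.2) had a summit within 100 bp in both replicates, against 92.4% on the autosomal arms, which ranged from 90.7% to 94.2%. The other 61 comprised 29 matched in replicate 2 alone, 28 in replicate 3 alone and 4 in neither. Their median signal was 149.7, against 203.8 for the 936, and the strongest of them was a prage promoter peak at 641, with 273 in replicate 2 and no match in replicate 3. An overlapping prage peak at 595, with its own summit, was matched in both (276 in replicate 2 and 341 in replicate 3). Over the 936 matched X peaks, which share the same libraries, Spearman's rho between the replicates' signals was 0.831 as a description. The IDR cut already keeps peaks that rank alike in replicates, so the matched share and this rho are no independent measure of agreement.

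**Figure D1:**
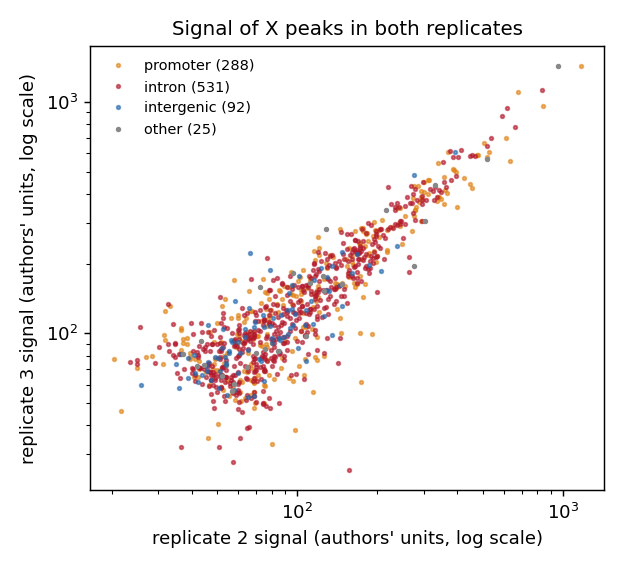
Signal of the 936 X peaks matched in both replicates, in the authors' units on log axes, with replicate 2 on the horizontal and replicate 3 on the vertical axis. Each point is a peak, coloured by the gene class of its summit, and the classes overlap along 1 diagonal with a Spearman rho of 0.831. The IDR cut had already kept peaks that rank alike in replicates.

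Peaks were spread along X up to a thinly filled end next to the centromere. The first summit was at 175738 and the last at 22846510, which left 695761 bp without one. In the 23 full bins of 1 Mb the count ran from 4 to 75 with a median of 43 ± 18.8 (SD over bins), and no full bin was empty. The median per bin on the autosomal arms was between 39 and 47.5. The bin from 6 to 7 Mb was the densest, with 75 peaks. Its strongest were at ND-ASHI (899), a subunit gene of mitochondrial complex I, CG4586 (755), CG43736 (691) and CG42240 (680). The bin from 22 to 23 Mb had 4 peaks, assigned to CG42346 (353), l(1)G0196 (165), Cda4 (144), a chitin deacetylase gene, and fog (116), a gastrulation ligand gene. The widest gap between summits, 897104 bp, ran from 21594088 to 22491192. Across the 23 bins the peak count followed the number of all pooled regions (Spearman rho 0.830), which include the IDR peaks themselves. The peak count was less related to the number of protein-coding genes (0.270), as a description over bins of 1 chromosome.

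**Figure D2:**
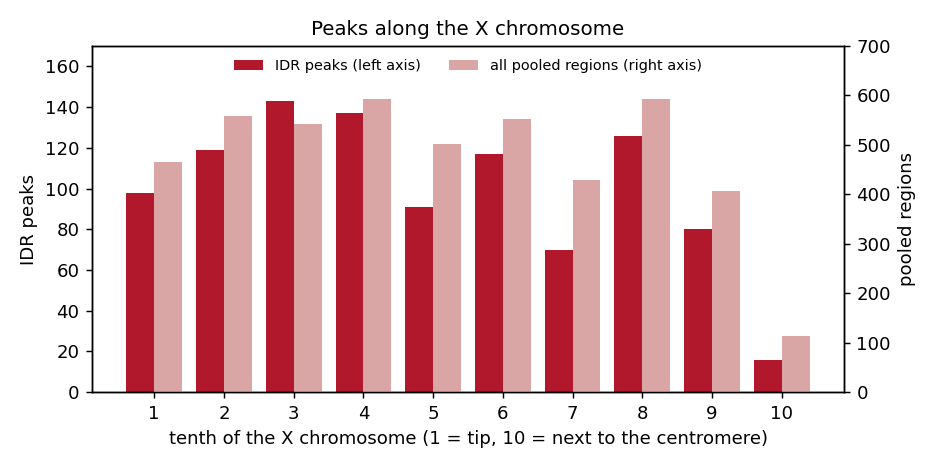
Number of IDR peaks (dark, left axis) and of all regions called on the pooled data (light, right axis) in 10 equal stretches of X, from the tip to the end next to the centromere. The IDR peak count is highest in stretch 3 (143) and lowest in stretch 10 (16).

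Many X summits came in runs. A neighbouring summit lay within 1 kb of 26.3% of them, against 25.4% to 30.2% on the single autosomal arms. Some such neighbours share 1 called region, as at 4910388 and 4910600 in CG32772, and each summit was counted. More than 50 kb from any other stood 15 (1.50%), against 1.15% to 2.83% on those arms. When summits no more than 3 kb apart were joined, 155 of the 997 fell in 32 runs of at least 4 summits, or 15.5%, against 12.3% to 14.1% on those arms. The longest run had 10 summits over 2293570 to 2306730, from the promoter of CG2865 into the first part of Raf, and all 10 were matched in both replicates. Its summits had signals from 240 to 1429. Other runs lay in Mnt, a Myc antagonist gene (7 summits), at CG32772, upstream of Act5C, in CHES-1-like and in CG14441 (6 each).

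Per base, X and the autosomal arms were close in IDR peaks, and which of them was higher depended on the stretches counted. X held 42.3 peaks per Mb, against 39.7 on the autosomal arms, where single arms ranged from 36.3 to 43.2, and the ratio was 1.07. Counted per Mb outside masked repeats it was 1.08. The autosomal assemblies include more sequence next to the centromeres with few or no peaks. Over full 1 Mb bins in which less than 30% of bases are repeats masked in the reference or unknown, X had 45.1 peaks per Mb in 22 bins and the autosomal arms had 46.4 in 93 bins, a ratio of 0.972, an alternative chosen after seeing the data. Per gene X lay above all 4 arms: it had 45.4 peaks for 100 protein-coding genes, against 37.1 on the autosomal arms and 33.8 to 44.3 on single arms, with 93.3 genes per Mb on X and 107 per Mb on the autosomal arms.

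Weak regions were fewer per Mb on X. All regions called on the pooled data numbered 4753 on X, or 202 per Mb, against 224 per Mb on the autosomal arms, and the 4 arms ranged from 207 to 236. Of these X regions, 21.0% (interval 19.8 to 22.2) were in the IDR list, against 17.7% (17.2 to 18.2) on the autosomal arms, 16.5% to 18.6% on single arms and 18.2% over the whole pooled list. By rank of pooled signal, X held 19.4% of the 1000 strongest regions and 18.8% of those ranked 5328 to 10000, against 14.9% of those ranked 10001 to 20000 and 15.1% of the rest. X makes up 17.1% of the assembled length and holds 15.7% of the protein-coding genes and 16.3% of all pooled regions. In replicate 2 the share was 20.2% for the 1000 strongest and 13.2% for ranks 10001 to 20000. In replicate 3 the shares at these ranks were 18.6% and 16.4%. The fall in share with rank was seen in both replicates and was smaller in replicate 3, whose list has exactly 30000 regions. Whether the number of X copies in the pooled sexes moved with it was not tested.

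**Figure D3:**
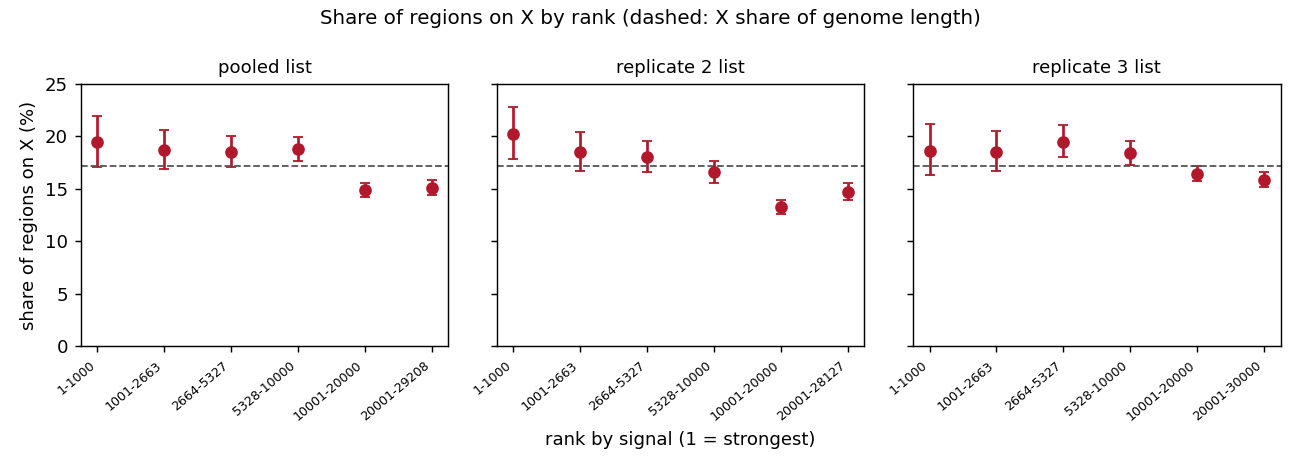
Share of regions on X by rank of signal in the pooled, replicate 2 and replicate 3 lists, with 95% Wilson intervals, and the X share of assembled length (17.1%) as a dashed line. In each list the points for the strongest 5327 regions sit above the line and those beyond rank 10000 below it.

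X summits lay inside introns more often, and between genes less often, than summits of any other large arm. Introns held 556 of the 997 (55.8%, interval 52.7 to 58.8), against 43.5% on the autosomal arms and 39.2% to 46.7% on single arms. Intergenic summits numbered 97 (9.73%, interval 8.04 to 11.7), against 21.8% on the autosomal arms and 15.7% to 29.3% on single arms. Promoters, here within 500 bp of any start site, took 31.8% on X and 32.7% on the autosomal arms, a difference within the counting intervals. Among the 200 strongest X peaks 2% were intergenic, against 17.6% among the 865 strongest autosomal peaks, which is the same upper part of each list. Only 2 X summits (0.201%) lay in coding exons, though these make up 13.2% of X. The autosomal arms likewise had 4 (0.0925%), with 13.0% of bases in coding exons.

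Set against the share of bases, the intron difference was smaller and the intergenic difference remained. Introns cover 43.3% of X, against 38.6% of the autosomal arms, so X intron summits were 1.29 times their share of bases, and this ratio was 1.06 to 1.28 on single arms. In the bins with less than 30% masked bases it was 1.24 on X, within the 1.04 to 1.27 of single arms. For intergenic sequence the ratio was 0.431 on X, with 22.6% of bases, against 0.532 to 0.908 on single arms, and 0.503 on X against 0.734 to 1.15 in the less masked bins. The X regions outside the IDR list had the same order, with 53.9% in introns and 16.7% between genes, against 43.3% and 26.1% for such regions on the autosomal arms. With protein-coding models alone, X had 54.5% of summits in introns and 14.2% between genes, against 39.4% to 47.7% and 19.5% to 32.9% on single arms. A few long models held 46 of the 556 X intron summits: kirre, an adhesion gene of muscle and eye, held 23 and lncRNA:CR44357 held 23, among them all 18 in CG1677. The models of lncRNA:CR44357 and CG1677 span other genes, brk and unc-119 among them. With the 37 summits that lay in these 3 models and in no other counted as intergenic, X had 52.1% in introns and 13.4% between genes.

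**Figure D4:**
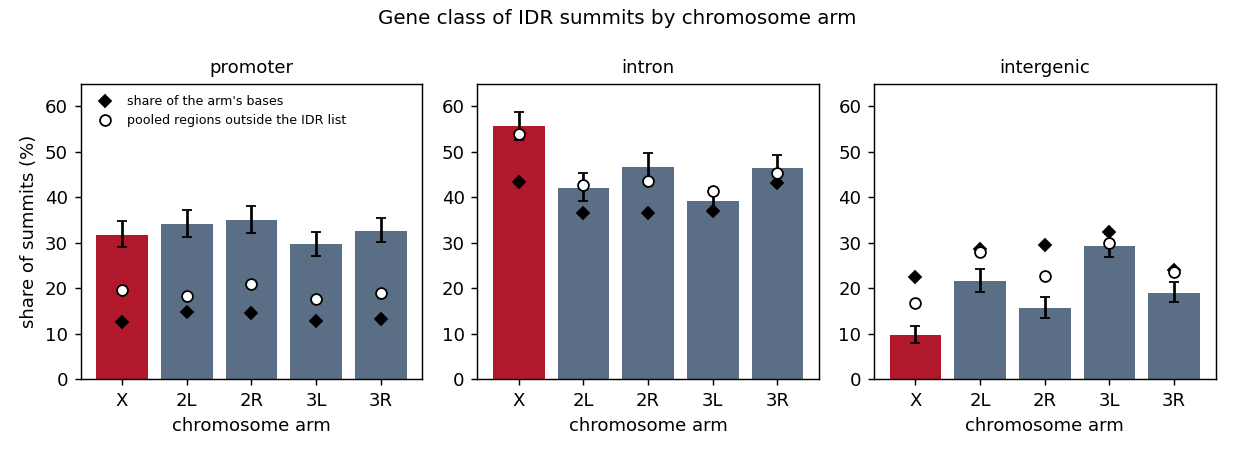
Share of IDR summits in promoters, introns and intergenic sequence for X and each autosomal arm, with 95% Wilson intervals (bars), the share of the arm's bases (diamonds) and the share of pooled regions outside the IDR list (open circles). X stands highest for introns (55.8%) and lowest for intergenic sequence (9.73%), and its promoter share lies within the range of the arms.

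More X genes had a summit, and X genes were longer. With each summit assigned to the nearest protein-coding start site within 10 kb, 493 of 2196 X genes (22.4%, interval 20.8 to 24.2) had at least 1, against 18.4% (17.7 to 19.2) on the autosomal arms, 17.5% to 20.9% on single arms and 19.0% over all protein-coding genes. The median gene length was 2521 bp on X and 2088 bp on the autosomal arms, and its part in the share was not tested. X summits beyond 10 kb from any such start site made up 11.7%, against 17.2% on the autosomal arms. Single arms ranged from 12.3% (2R) to 19.5% (3L). Of the 493 genes, 27 (5.48%) had 5 summits or more, against 4.46% on the autosomal arms and 3.85% to 5.07% on single arms. CG43658 had the most (14), followed by Tlk (13), Mnt (12), CHES-1-like (10), Raf (8) and RhoGAP18B (8). Act5C, Ptpmeg2, chas, sdt, a cell polarity gene, and CG14441 had 7 each. Their gene models measured from 4539 bp for Act5C to 105012 bp for CG43658, and the strongest peaks of these genes ranged from 301 at CG14441 to 1565 at Act5C. CHES-1-like encodes another forkhead protein, and its strongest summit (974; 404 in replicate 2 and 581 in replicate 3) lay in its own intron, 2039 bp upstream of the nearest of its start sites.

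The gene lists that follow are small and were chosen with earlier results of these data known. Their counts are read beside the 22.4% of all X genes and 18.4% of autosomal genes that had a summit. A gene counts as without one when no summit was assigned to it by the nearest start site. Of 61 such X members, 3 nonetheless contained a summit, and these are named where they occur. Among protein-coding genes of dosage compensation, 1 of 2 on X and 1 of 6 on the autosomal arms had a summit, numbers too small to set apart from those shares. Sxl had 2, the stronger at chrX:7096557-7096690 with a signal of 349 (120 in replicate 2 and 234 in replicate 3), 447 bp downstream of a start site. JIL-1, a histone kinase gene on 3L, had 1 of 828. No summit was assigned to mof, the acetyltransferase gene of the MSL complex on X, or to msl-1, msl-2, msl-3, mle and Clamp on the autosomes. The roX genes are not protein-coding and so took no summit by this rule, and the closest summit lay 4507 bp from the start of roX1 and 2312 bp from that of roX2. The X-linked elements whose dose sets Sxl, namely sisA, sc, upd1 and run, had 0 of 4, a count whose interval reaches 49.0% and so includes the share of all X genes, with the closest summit between 4164 bp (sisA) and 33871 bp (run) away.

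Cytosolic ribosomal protein genes were the X group with the highest share of members hit, at 11 of 15 (interval 48.0 to 89.1). On the autosomal arms 37 of 77 had a summit (interval 37.3 to 59.0), and the intervals overlap. The list was drawn by gene symbol and takes in autosomal genes such as RpL7-like and RpS28-like, which had none. Also counted as without a summit were autosomal RpL13 and RpL34a, with the closest summit 47 bp and 127 bp away. The share for all X genes was 22.4%. The strongest peaks of the 11 X members had a median of 160, against 194.8 over all X peaks, and those named here ranged to both sides of that value: RpS10b had 329 at 2 bp, RpS28b 303 at 39 bp, RpS5a 249 at 26 bp, RpL17 179 at 16 bp, RpS14b 166 at 28 bp and RpS19a 160. RpL35, RpL36, RpL37-1 and RpS6 had none. RpS14a and RpS14b are near-identical neighbours, and how reads were divided between such copies is not given in the sources used here.

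Signalling genes on X had a summit in 12 of 20 members (60%, interval 38.7 to 78.1). Patterning and identity factors had a summit in 12 of 24 (50%, interval 31.4 to 68.6), against 22.4% of all X genes. The members were chosen with earlier results of these data known, so these intervals do not measure an excess over all X genes. For signalling, the strongest were Raf (1429), sgg, the GSK3 kinase (891, at a promoter), egh (422), upd3, a JAK/STAT ligand gene (319), Fas2 (291) and csw (273). No summit was assigned to N, dsh, fu, upd1, upd2, hop, shi and sno. N, the Notch receptor gene, nevertheless held an intron peak of 594 (294 in replicate 2 and 307 in replicate 3) at chrX:3162381-3162675, whose nearest start site, that of CG18508, was 10606 bp away. Among identity factors the strongest assigned peaks were those of CHES-1-like (974), brk, a repressor of Dpp targets (768), ovo (447), ct (391), oc (326) and disco-r (288, matched in replicate 3 alone). Bx, with an assigned peak of 242, also held an intron peak of 484 (190 in replicate 2 and 294 in replicate 3). That peak lay 11538 bp from the nearest start site, a Bx start, and so was not assigned. The other X forkhead genes of the list, fd3F and fd19B, had no summit.

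In the remaining lists the intervals all included the 22.4% of all X genes. Chromatin regulators had a summit in 6 of 15 members (40%, interval 19.8 to 64.3), namely ph-p (1743), nej, the CBP acetyltransferase (544), fs(1)h, a BET bromodomain gene (344), ph-d (335, matched in replicate 2 alone), HDAC4 (293) and Taf9 (135). The 9 with none assigned were mof, trr, wds, e(y)3, HDAC6, Rbf, Bap111, Trf2 and Set2. Trf2 had a summit (129) 787 bp from its start, which went to lawc, 39 bp away. In the ecdysone list 2 of 6 (interval 9.68 to 70.0) had one: the nuclear receptor genes Hr4 (1036, 5 summits) and usp, the partner of the ecdysone receptor (177). The other members br, dor, Cyp18a1 and Sgs4 had none. In the achaete-scute complex of proneural genes, ac had 2 (strongest 214, at 9732 bp) and ase 1 (171, at 7831 bp). None was assigned to sc and l(1)sc, whose closest summits lay 11856 bp and 16058 bp away, beyond the 10 kb limit. Neuronal channel and synapse genes had 3 of 11 (27.3%, interval 9.75 to 56.6), norpA (1037), elav, a neuronal RNA-binding protein gene (876, promoter), and rdgB (392), while para, Sh, cac, eag, nAChRalpha7, rdgA, Appl and per had none assigned. A summit inside rdgA (208) went to CG10962, 126 bp away. Eye pigment genes had 3 of 8 (interval 13.7 to 69.4), cm (285), ras (154) and car (147, matched in replicate 2 alone). The members w, v, g, rb and VhaAC39-1 had none. Yolk and eggshell genes, expressed in adult females, had 0 of 8 (interval up to 32.4; Yp1, Yp2, Yp3, Cp36, Cp38, Cp7Fa, Cp7Fb and Cp7Fc).

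GC content at X summits differed little from that at autosomal summits. The mean GC content of the window from 50 bp before to 50 bp after the summit was 33.8 ± 8.44% on X (SD over 997 peaks), against 33.3 ± 8.38% on the autosomal arms, where single arms ranged from 32.9% to 34.1%. Tiles of the same length over the whole chromosome averaged 42.5% on X and 42.2% on the autosomal arms. The trough reached 32.5% at the summit in both groups. The 200 strongest X peaks averaged 31.7% and the 199 weakest 35.4%.

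**Figure D5:**
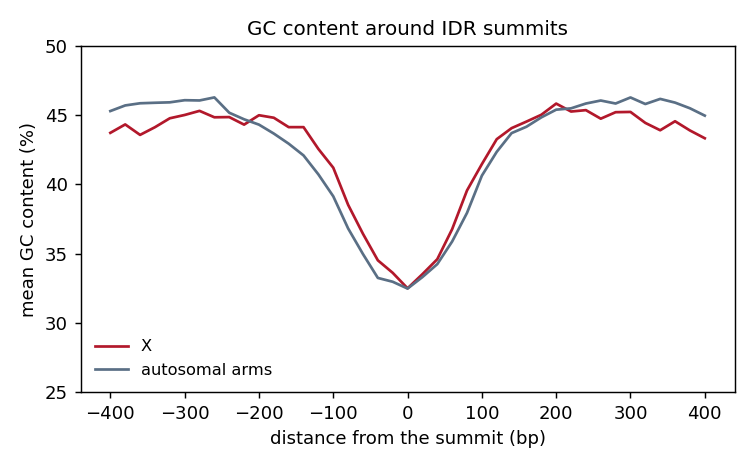
Mean GC content every 20 bp by distance from the summit, for X peaks and for peaks of the autosomal arms. Both curves reach 32.5% at the summit and rise above 40% by 100 bp to the right of it.

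Forkhead cores were about as frequent at X summits as elsewhere. GTAAACA was in 23 X windows (2.31%, interval 1.54 to 3.44), against 2.20% of autosomal windows, and in 1.72% of X tiles and 1.93% of autosomal tiles, counting both strands. ATAAACA was in 4.51% of X windows, against 4.69%, and in 3.40% of X tiles. Together 68 X windows held either core. The homeodomain-type word TAATTA was in 8.22% of X windows (interval 6.68 to 10.1), against 10.3% of autosomal windows and 9.54% to 10.8% on single arms. The GATA-type word AGATAA was in 7.02% (interval 5.59 to 8.78), against 8.39% and 7.94% to 8.65% on single arms. Both words were also scarcer in X tiles: TAATTA was in 6.05% of X tiles and 6.56% of autosomal tiles, and AGATAA in 4.98% of X tiles and 5.69% of autosomal tiles. Divided by the tile share, TAATTA was still lower on X (1.36) than on single arms (1.52 to 1.65). The same ratio for AGATAA was 1.41 on X and 1.43 to 1.50 on single arms. AAAAAA was in 29.2% of X windows, against 27.6%, with a ratio of 1.43 on X and 1.51 to 1.62 on single arms. The repeat GAGAGAGA was in 11 X windows (1.10%), against 0.624%, and in 0.783% of X tiles and 0.523% of autosomal tiles. The repeat CACACACA was in 1.91% of X windows, against 1.18%, and in 3.02% of X tiles and 1.91% of autosomal tiles. It was rarer at summits than in tiles in both groups, with a ratio of 0.632 on X and 0.424 to 0.832 on single arms. A match is only a run of letters within the window, and these shares say nothing about which factor was bound.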

How the data were processed

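ChIP-seq peak lists of 2 biological replicates (numbers 2 and 3) of anti-GFP immunoprecipitates from fd59A-GFP prepupae were used. The authors deposited, per the file descriptions, a list of regions for each replicate, a list called on the pooled alignments with a control, and an IDR-thresholded list, in dm6 and dm3. Not given in the sources used here: aligner, peak caller, versions and IDR threshold. Signal values were deposited by the authors with no stated scaling, and served to rank and describe peaks. The deposited −log10 q value was used only to see that 81.1% of X peaks sat at its maximum. Sequencing depth is unknown, since the lists hold no read totals.

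Peaks on X were set against those of 2L, 2R, 3L and 3R. Summits were matched between lists within 100 bp and classed against Ensembl release 115 models. The first class that applied was taken (promoter within 500 bp, then 5' and 3' UTR, coding, other exonic, intronic, intergenic). Each summit was assigned to the nearest protein-coding start site within 10 kb. Motifs and GC used 50 bp either side of the summit. Repeats were the lower-case bases of the RefSeq sequence. The genes named were those of the 20 strongest X peaks, the 10 genes with most summits (and CG14441, tied with the last of them), the 4 strongest in the densest and all in the emptiest 1 Mb bin that holds peaks, all members of the dosage compensation and sex counting lists, and up to 6 of each other list. Bx was named besides these for a peak beyond the 10 kb limit. Of the listed symbols 3 were matched through older names and 1 (phm), which fitted several genes, was left out. Members and lists were chosen with earlier results of these data known, and the intron, intergenic and less masked bin comparisons were added after seeing the data. The replicates come from 1 line as separate biosamples. The functions were tested on simulated summits. Python 3.11.15, numpy 2.4.6, pandas 2.3.3, scipy 1.17.1 and matplotlib 3.10.9 were used.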

Additional observations from a re-analysis of the deposited data

How the results depend on the processing

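Motif differences (X minus autosomal arms, percentage points) were small, and 12 of 44 alternatives turned their direction. GTAAACA ran from -0.0223 to 0.261 over the replicates left out and was -0.404 with 100 bp either side of the summit. The variant ATAAACA ran from -0.736 to 0.168 over the replicates left out and was 0.187 among the 2663 strongest peaks. GAGAG was at -0.263 without replicate 2 and -0.504 without replicate 3. Among the 2663 strongest peaks CACACA was at -1.23, the longer CACACACA at -0.576, TATCGATA at -0.371 and AAAAAA at -0.257. TATCGATA was also at -0.406 without replicate 2 and -0.0571 without replicate 3. For the word TAATTA, the word AGATAA, the repeat GAGAGAGA and the core GACGC, no alternative tried turned the direction.

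Where a replicate was left out, as many of the strongest regions of the other were used. The X share of peaks stayed between 18.6% and 19.0% under its alternatives. The density ratio turned to 0.972 in bins with less than 30% masked bases and 0.953 in bins that hold a peak. It was 1.22 per protein-coding gene, 1.10 without arm 3L and 1.03 without 3R. The median signal ratio ran from 0.981 to 1.03 over the replicates left out. The difference in share matched in both replicates was 3.07 points within 50 bp and -0.745 among the 2663 strongest peaks. The promoter difference was 1.40 points among those peaks, -2.97 with a 250 bp width and 0.271 with protein-coding starts only. The intron difference, 12.3 points, ran from 10.9 to 12.8 over the replicates left out, and was 10.3 with protein-coding models and 10.6 without 3L. The intergenic difference, -12.0 points, ran from -11.7 to -11.3 over the replicates left out. It was -14.3 among the 2663 strongest, -11.2 with protein-coding models, -13.8 without 2R, -9.08 without 3L and -13.0 without 3R. The GC difference, 0.531 points, ran from 0.487 to 0.851 over the replicates left out, and was 1.01 among the 2663 strongest, 0.120 with 25 bp and 0.955 with 100 bp either side. The difference in share of genes with a summit, 4.01 points, ran from 3.71 to 3.75 over the replicates left out. It was 2.58 for the 2663 strongest, 2.38 within 1000 bp, 4.04 at any distance and 4.27 in the less masked bins. The causes were not tested. No paired analysis was possible because there is 1 group. Depth is unknown, so no limit on undetected peaks can be given.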
